A study of Mus musculus with 18 samples.

Results

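The genes described here are 10 genes of the NRF2 system that surround thioredoxin, quinone reduction and the NADPH they draw on, chosen by name. They are the regulators *Nfe2l2*, *Keap1* and *Sqstm1*, the thioredoxin and peroxiredoxin genes *Txn1*, *Txnrd1*, *Srxn1* and *Prdx1*, the quinone reductase *Nqo1*, and the pentose phosphate genes *G6pdx* and *Tkt*. Each symbol matched 1 of the 31053 genes listed, and the 10 genes were all among the 12290 that passed the filter on low counts. They were described across bulk RNA-Seq libraries of mouse bone marrow-derived macrophages that had or had not lost *Slc7a7*, which encodes the light subunit of an exchanger of cationic and neutral amino acids, and that were loaded with modified LDL or left in control medium.

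The macrophages came from 6 mice on the C57Bl/6J background, 12 weeks old, 3 of them Slc7a7-/- (knockout) and 3 Slc7a7+/+ (wild type). The deletion was driven by LysM-Cre, which is expressed from the lysozyme M locus *Lyz2* and so acts in myeloid cells and not throughout the animal. From each mouse, wells of 100000 cells were kept for 24 h in control medium, with acetylated LDL (AcLDL, 50 μg/mL) or with oxidized LDL (OxLDL, 100 μg/mL), which gave 6 groups of 3 libraries. The cells of 1 mouse therefore stand in each of the 3 media, and replicate numbers below are mice within a genotype. Mouse 1 of one genotype shares only a number with mouse 1 of the other.

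NRF2, the protein of *Nfe2l2*, is a transcription factor that KEAP1 marks for degradation through a CUL3 ubiquitin ligase, and modification of KEAP1 cysteines by electrophiles and oxidants lets NRF2 accumulate and bind antioxidant response elements. Its best known targets make glutathione, reduce quinones, keep thioredoxin and peroxiredoxins reduced and supply NADPH. In macrophages, oxidized lipoproteins are a classical stimulus of this system, and p62, the protein of *Sqstm1*, is an autophagy receptor that binds KEAP1 and is itself an NRF2 target.

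The core letters of the antioxidant response element, TGACNNNGC, were searched on both strands of the promoter windows given by RefSeq on GRCm38.p6, from 250 bases before to 50 bases after each annotated start. All 10 genes had a window, and 5 of the 10 held the core, against 3781 of the 27025 genes with a window (14%). The 5 matches are shown because they are the stretches of these promoters that carry the element searched for, with the core in capitals, 5′ to 3′ on the strand of the gene.
Nfe2l2 (chr2:75704885-75704913, minus strand): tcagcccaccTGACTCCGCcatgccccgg
Txnrd1 (chr10:82859104-82859132, plus strand): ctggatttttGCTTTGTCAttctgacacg
Srxn1 (chr2:152105542-152105570, plus strand): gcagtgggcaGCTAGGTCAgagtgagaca
Prdx1 (chr4:116685456-116685484, plus strand): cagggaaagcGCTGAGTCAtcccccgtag
G6pdx (chrX:74428919-74428947, minus strand): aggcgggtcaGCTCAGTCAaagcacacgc
The *Nfe2l2* core read along the gene, 240 bases before the start, and the other 4 read on the opposite strand, as GCNNNGTCA. Those of *Prdx1*, *Txnrd1* (in window 2 of its 3 windows) and *G6pdx* began 133, 92 and 57 bases before a start, and that of *Srxn1* lay inside the transcribed part of its window. Of the 5 cores, that of *Prdx1* overlapped TGACTCA, the AP-1 site, which stood in 5.95% of genes' windows. *Keap1*, *Nqo1*, *Txn1*, *Sqstm1* and *Tkt* held no core in these windows, which says only that the letters were not in them. A match is a description of the letters and not evidence of binding.

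The libraries held 1043492 to 1768816 counts each (median 1466145). On the CPM scale used here, counts relative to the TMM-scaled library total, 3 counts were worth 1.67 to 2.85, which is the level that a gene with no count could still have. *Slc7a7* itself had 11.1, 12.6 and 21.1 CPM in wild type control cells and 10.2, 4.33 and 5.16 CPM in knockout control cells. With AcLDL it had 28.5, 23.6 and 23.8 CPM in wild type and 2.36, 2.22 and 5.22 CPM in knockout cells, and with OxLDL 28.7, 25.9 and 29.3 CPM against 10.1, 10.9 and 8.67 CPM. The genotypes did not overlap in any medium, and *Slc7a7* reads remained in each knockout library. Of 8 macrophage markers 8 were detected, with a summed level of 12600 to 35900 CPM, and of 9 neutrophil markers 8, at 41.1 to 329 CPM with *Retnlg* at 0. The largest part of the macrophage sum was *Lyz2*, at 7530 to 30500 CPM, while no other macrophage marker exceeded 3000 CPM. Summed markers of stromal cells reached 35.8 CPM, of dendritic cells 4.62, of lymphoid cells 3.15, of erythroid cells 2.19 and of mast cells and basophils 1.3 CPM. In such bulk libraries, fewer cells of a type and less RNA per cell cannot be told apart.

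Levels of different genes can be compared only per length. On the scale of mean CPM per kb of exon over the 18 libraries, *Prdx1* was the most abundant at 392, followed by *Sqstm1* at 128, *Txn1* at 86.6, *G6pdx* at 68.4, *Nfe2l2* at 54.4, *Srxn1* at 51.8, *Tkt* at 43.9, *Txnrd1* at 39.0, *Nqo1* at 17.7 and *Keap1* at 8.53. The length used is that of all annotated exons of a gene together, 7355 bases from 9 transcripts for *Tkt* and 1553 bases from 1 for *Nqo1*. Genes with many transcripts may therefore stand too low in this order. The neighbours *Nfe2l2* and *Srxn1* exchanged places with the medium, from 61.2 ± 6.51 and 42.4 ± 5.78 CPM per kb in wild type control cells to 55.0 ± 1.85 and 61.1 ± 9.89 with OxLDL (SD, n = 3). *Nqo1* had the fewest reads, with 12 to 68 counts per library. Of the 31-base words of their transcripts, *Prdx1* shared 15.2% with other genes, *G6pdx* 12.6%, all with *G6pd2* (at most 1.36 CPM), and *Txn1* 6.95%. With genes that were counted here, *Prdx1* shared 2.15% and *Txn1* 0%, since *Txn1* shared words only with the uncounted pseudogene *Txn-ps1*. The assignment of some reads of *Prdx1* and *G6pdx* among the counted genes is therefore uncertain. On the other strand, *Keap1* overlaps *Gm16754*, *Sqstm1* overlaps *Mrnip* (at most 5.55 CPM) and *G6pdx* overlaps *Ikbkg* (62.1 to 117 CPM). *Txnrd1* overlaps *Eid3* on its own strand (15.4 to 35.8 CPM). The strand setting of the counting is not given in the sources used here, and reads of such pairs may have been shared.

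**Figure D1:**
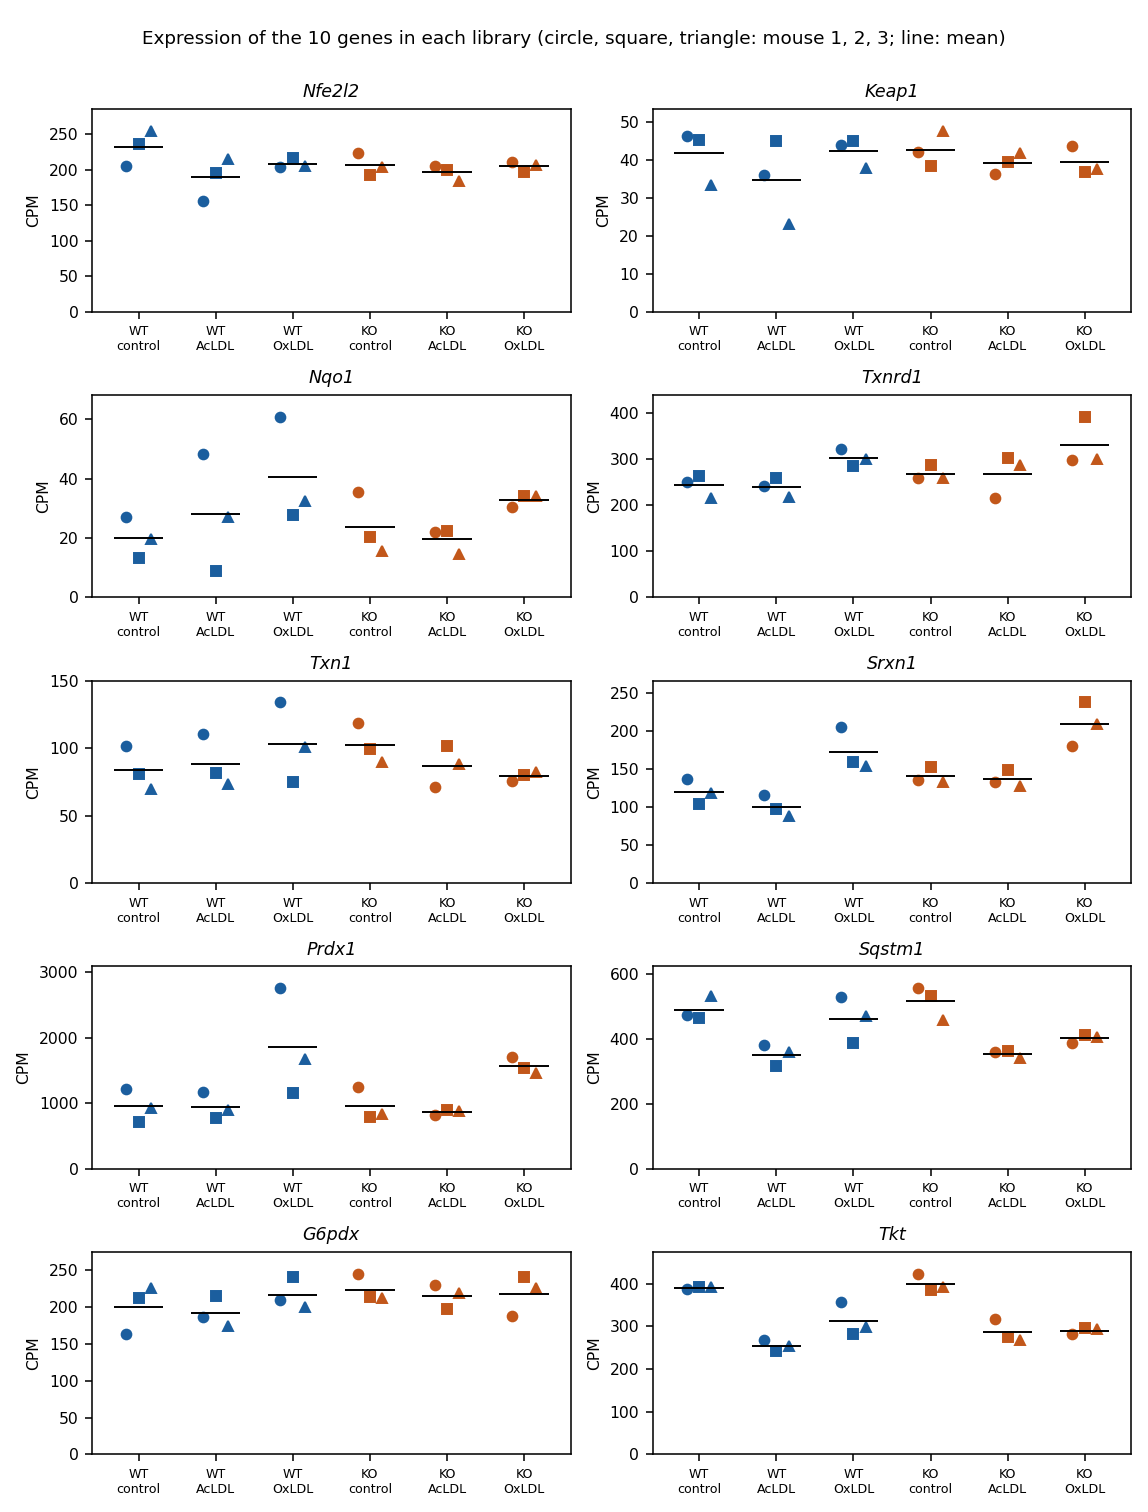
Expression of the 10 genes in CPM (linear axis from 0) in each of the 18 libraries, by genotype and medium, with circle, square and triangle for mouse 1, 2 and 3 of a genotype and a line for the mean of 3. *Prdx1* runs from 718.9 to 2761 CPM with its highest values under OxLDL, while *Tkt* is highest in control medium in both genotypes.

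The first question was which of the 10 genes responded to each modified LDL. With edgeR's quasi-likelihood test and Benjamini-Hochberg adjustment over all 12290 genes, 4 of the 40 responses to an LDL passed the threshold. *Prdx1* rose with OxLDL in wild type cells and *Srxn1* in knockout cells, and *Tkt* fell with AcLDL in wild type and with OxLDL in knockout cells. The counts were 1 of 10 for AcLDL in wild type cells (lower, where 0.472% of all genes were called), 1 of 10 for OxLDL in wild type (higher; 1.34% of all genes), 0 of 10 for AcLDL in knockout (0.521%), and 2 of 10 for OxLDL in knockout cells (1 higher and 1 lower; 2.32%). The 2 LDL comparisons of a genotype share its control libraries. Both LDLs were given to cells of the same mice, and with the mouse as a block the counts were 2 of 10 (AcLDL, wild type), 4 of 10 (OxLDL, wild type), 2 of 10 (AcLDL, knockout) and 4 of 10 (OxLDL, knockout), while the calls over all genes rose to 265, 539, 307 and 882. In fits of the compared libraries alone, which do not share the spread of all groups, the counts were 0, 0, 2 and 4 of 10 in the same order. The calls over all genes were then 32, 62, 198 and 751. Groups with an LDL did not overlap their controls for 2 of 10 genes (AcLDL, wild type, against 11% of all genes), 4 of 10 (OxLDL, wild type, 11.8%), 2 of 10 (AcLDL, knockout, 16.7%) and 6 of 10 (OxLDL, knockout, 21.6%).

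Of the 3 regulators, *Nfe2l2* and *Keap1* passed the test in no comparison, with or without the mouse as a block. *Sqstm1* passed with the block and in some of the other alternatives, but not in the main fit. *Nfe2l2* (chr2:75675513-75704641, minus strand of GRCm38), the gene of NRF2, stood in wild type cells at 206.1, 235.9 and 255.1 CPM in control medium, at 156.6, 195.8 and 215.6 CPM with AcLDL and at 204.3, 216.7 and 204.8 CPM with OxLDL. Knockout cells had 223.7, 193.1 and 204.4 CPM in control, 204.9, 200.5 and 185 CPM with AcLDL and 211.3, 196.4 and 207 CPM with OxLDL. The groups overlapped in each comparison with control. The widest difference was a log2 fold change of -0.29 (SE 0.125) for AcLDL in wild type cells, lower in 3 of 3 mice, which did not pass edgeR's quasi-likelihood test (adjusted p 0.588), and that for OxLDL in knockout cells was -0.02 (SE 0.123).

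*Keap1* (chr9:21229730-21239361, minus strand), the substrate adaptor that holds NRF2 low, had group means of 34.8 to 42.8 CPM and 23.1 to 47.7 CPM over all libraries. Its log2 fold changes against control were between -0.27 and 0.02 with SE of 0.195 to 0.209, and no group stood apart from its control. Such intervals are wide: for OxLDL in knockout cells the log2 fold change was -0.12 with a 95% interval of -0.53 to 0.29.

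*Sqstm1* (chr11:50199366-50210827, minus strand), which encodes the autophagy receptor p62, was lower with AcLDL in each of the 6 mice. Wild type cells had 471.6, 464.1 and 529.9 CPM in control medium and 380.5, 314.7 and 357.7 CPM with AcLDL, and knockout cells had 555.9, 531.1 and 457.7 CPM against 357.8, 361.5 and 341.5 CPM. The AcLDL and control groups did not overlap in either genotype. The log2 fold changes were -0.48 (SE 0.131) and -0.54 (SE 0.13), with adjusted p of 0.147 and 0.0626 in edgeR's quasi-likelihood test, and of 0.00137 and 0.000224 with the mouse as a block. DESeq2, without a block, gave adjusted p of 0.0335 and 0.00396. In edgeR the knockout value also passed in a fit of the compared libraries alone (0.00682) and with no filter on low counts (0.046), and the wild type value did not. With OxLDL, knockout cells had 386.4, 411.9 and 404.1 CPM, all under their controls, with a log2 fold change of -0.36 (SE 0.13). It passed with the mouse as a block (adjusted p 0.00931) and in a fit of the compared libraries alone (0.0327), and not in the main fit (0.191). Wild type cells with OxLDL had 529.5, 385.2 and 468.2 CPM and overlapped their controls (log2 fold change -0.09, SE 0.13).

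Among the thioredoxin and peroxiredoxin genes, *Prdx1* (chr4:116685544-116700822, plus strand), which encodes a peroxiredoxin that reduces peroxides with electrons from thioredoxin, had the largest rise with OxLDL. In wild type mice 1, 2 and 3 it stood at 1217, 718.9 and 920.6 CPM in control medium, at 1164, 773.5 and 899.7 CPM with AcLDL and at 2761, 1159 and 1670 CPM with OxLDL. In knockout mice it stood at 1245, 794.2 and 841.3 CPM, at 820.3, 901.9 and 880.2 CPM and at 1703, 1542 and 1469 CPM. Mouse 1 was the highest in control medium in both genotypes, and OxLDL was above control within each of the 6 mice. The wild type groups overlapped, since the OxLDL value of mouse 2 was below the control value of mouse 1, and the knockout groups did not.

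The log2 fold change of *Prdx1* with OxLDL was 0.97 (SE 0.241, 1.96-fold) in wild type cells, which passed edgeR's quasi-likelihood test (adjusted p 0.0428). In knockout cells it was 0.71 (SE 0.24, 1.64-fold), with an adjusted p of 0.149, and of 1.31e-05 with the mouse as a block. The wild type call was lost when control mouse 2, control mouse 3, OxLDL mouse 1 or OxLDL mouse 3 was left out (adjusted p 0.274, 0.153, 0.258 and 0.080), and without OxLDL mouse 1 the log2 fold change was 0.57. It was also lost in DESeq2 (adjusted p 0.0585) and in a fit of the 6 libraries alone (0.361). The knockout value, in contrast, passed in edgeR in a fit of its 6 libraries alone (adjusted p 0.00202) and with no filter on low counts (0.00134). With AcLDL, *Prdx1* had log2 fold changes of -0.01 (SE 0.24) in wild type and -0.15 (SE 0.24) in knockout cells.

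*Srxn1* (chr2:152105516-152111376, plus strand) encodes sulfiredoxin, which restores peroxiredoxins whose active cysteine has been over-oxidized. Wild type cells had 136.5, 104 and 118.1 CPM in control medium, 115.8, 97.5 and 87.7 CPM with AcLDL and 204.3, 159.3 and 153.2 CPM with OxLDL. Knockout cells had 135.7, 152.3 and 132.2 CPM in control, 133.2, 148.3 and 127 CPM with AcLDL and 180.2, 237.4 and 209.3 CPM with OxLDL. In both genotypes the OxLDL libraries lay above all control and all AcLDL libraries. The within-mouse differences in log2 CPM between OxLDL and control were from 0.37 to 0.66 over the 6 mice. *Srxn1* rose with OxLDL in knockout cells, by a log2 fold change of 0.58 (SE 0.143, 1.49-fold; adjusted p 0.0274 in edgeR's quasi-likelihood test). The wild type log2 fold change was of the same order at 0.53 (SE 0.148, 1.44-fold), with an adjusted p of 0.0924, and of 0.00115 with the mouse as a block. The knockout call was lost without control mouse 1 or 3 or OxLDL mouse 2 or 3 (adjusted p 0.114, 0.141, 0.196 and 0.102). The wild type value passed without control mouse 1 (adjusted p 0.0345) and with no filter on low counts (0.0422).

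*Txnrd1* (chr10:82833951-82897712, plus strand) encodes the cytosolic thioredoxin reductase, a selenoprotein that passes electrons of NADPH to thioredoxin. In wild type cells it had 251.6, 263.1 and 215.8 CPM in control medium and 323.4, 285.8 and 301.9 CPM with OxLDL, and in knockout cells 259.9, 287.2 and 259.8 CPM against 298, 393.4 and 301.8 CPM. OxLDL was above control in each of the 6 mice and the groups did not overlap in either genotype, but the log2 fold changes of 0.32 (SE 0.142) and 0.30 (SE 0.14) had adjusted p of 0.440 and 0.377 in edgeR's quasi-likelihood test. Over all genes, 5.55% were higher with OxLDL in each of the 6 mice. With AcLDL the log2 fold changes of *Txnrd1* were -0.02 and 0.00 (SE 0.143 and 0.14).

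*Txn1* (chr4:57943373-57956411, minus strand), which encodes thioredoxin, had fitted changes of opposite sign with OxLDL in the genotypes. In wild type mice it had 102.1, 81.0 and 70.0 CPM in control medium and 134.4, 75.3 and 101.1 CPM with OxLDL, higher in 2 of 3 mice. In knockout mice it had 118.8, 99.7 and 90.2 CPM in control medium and 75.77, 80.05 and 82.67 CPM with OxLDL, lower in 3 of 3. The log2 fold changes were 0.29 (SE 0.196) and -0.37 (SE 0.193), and neither passed (adjusted p 0.721 and 0.458 in edgeR's quasi-likelihood test). Without 1 library they ran from 0.07 to 0.47 in wild type and from -0.46 to -0.24 in knockout cells. The knockout groups did not overlap, and the wild type groups did.

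*Nqo1* (chr8:107388225-107403206, minus strand), the quinone reductase most often read as a sign of NRF2 activity, was measured with few reads. Wild type mice had 26.9, 13.3 and 19.7 CPM in control medium, 48.4, 8.87 and 27.2 CPM with AcLDL and 60.9, 27.8 and 32.6 CPM with OxLDL. Knockout mice had 35.6, 20.4 and 15.5 CPM in control, 22.1, 22.2 and 14.5 CPM with AcLDL and 30.3, 34.2 and 34.1 CPM with OxLDL. All wild type OxLDL libraries lay above the wild type controls, whereas in knockout cells mouse 1 was lower with OxLDL and mice 2 and 3 were higher. The log2 fold changes with OxLDL were 1.01 (SE 0.405, 2.01-fold) in wild type and 0.46 (SE 0.386) in knockout cells, with adjusted p of 0.353 and 0.712 in edgeR's quasi-likelihood test. Without 1 library they ran from 0.62 to 1.27 in wild type and from 0.23 to 0.88 in knockout cells. With the mouse as a block, the wild type value passed (adjusted p 0.0121), as it did with no filter on low counts (0.00841). With AcLDL the values were 0.48 (SE 0.427) and -0.30 (SE 0.407), and without 1 library they ran from -0.09 to 0.91 and from -0.52 to 0.12.

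Of the pentose phosphate genes, *G6pdx* (chrX:74409483-74429194, minus strand), which encodes glucose-6-phosphate dehydrogenase, the first enzyme of the pentose phosphate pathway and a main source of NADPH, had group means of 191.5 to 223.1 CPM. Its 4 log2 fold changes against control lay between -0.07 and 0.11 (SE 0.137 to 0.141), its groups overlapped each time, and 1 or 2 mice of a genotype moved each way.

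*Tkt* (chr14:30548359-30574720, plus strand), which encodes transketolase of the non-oxidative branch of that pathway, was lower with either LDL in each of the 6 mice. Wild type mice had 387.1, 393.6 and 391.4 CPM in control medium, 267.6, 243.1 and 254.3 CPM with AcLDL and 357.5, 281.5 and 300 CPM with OxLDL. Knockout mice had 423.9, 384.4 and 392.6 CPM in control, 316.8, 276 and 267.9 CPM with AcLDL and 281.2, 295.6 and 294.3 CPM with OxLDL. All 12 libraries with an LDL lay below all 6 control libraries. Over all genes, 5.90% were lower with AcLDL in each of the 6 mice and 7.49% with OxLDL.

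*Tkt* fell by 0.62 on the log2 scale with AcLDL in wild type cells (SE 0.119, adjusted p 0.00922 in edgeR's quasi-likelihood test) and by 0.46 with OxLDL in knockout cells (SE 0.117, adjusted p 0.0332). The log2 fold changes with AcLDL in knockout cells and with OxLDL in wild type cells were -0.48 (SE 0.117) and -0.32 (SE 0.118), with adjusted p of 0.0671 and 0.272, and of 0.00084 and 0.0258 with the mouse as a block. With AcLDL in knockout cells *Tkt* also passed in DESeq2 (adjusted p 0.00396) and, in edgeR, in a fit of the compared libraries alone (0.0175). The call with AcLDL in wild type cells was lost without AcLDL mouse 2, AcLDL mouse 3 or control mouse 2 (adjusted p 0.0582, 0.0642 and 0.0501) and in a fit of the 6 libraries alone (0.124). The call with OxLDL in knockout cells was lost without any one of the 6 libraries (0.083 to 0.189), with scaling by library size alone (0.0699) and with no filter on low counts (0.0835).

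**Figure D2:**
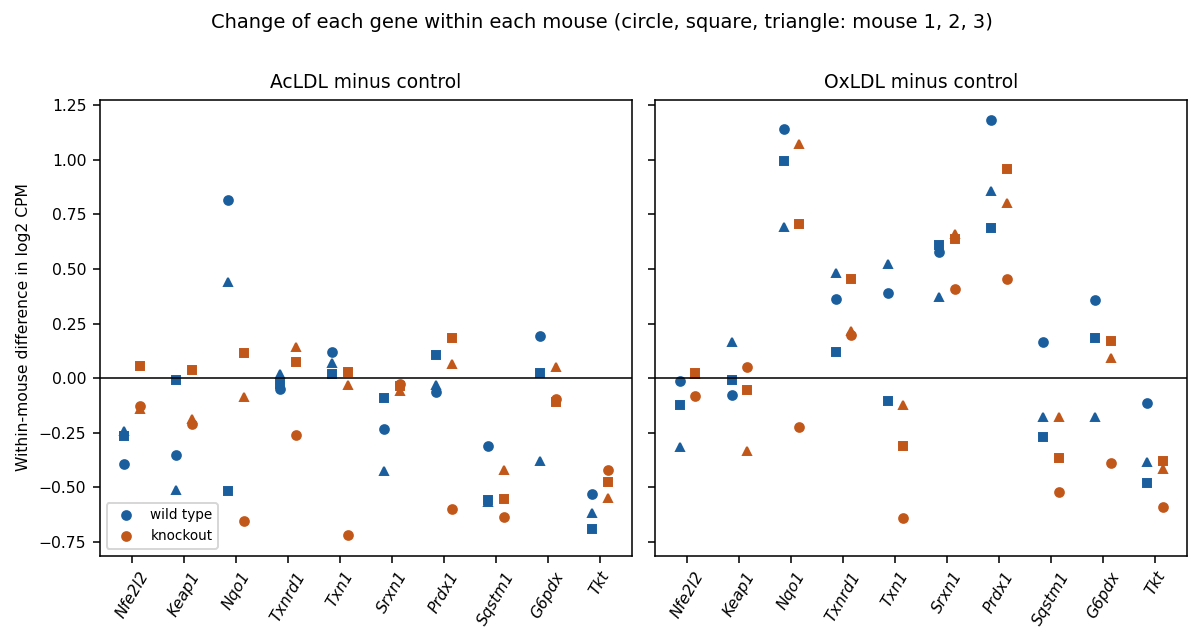
Difference in log2 CPM between each LDL and control medium within each mouse for the 10 genes, with blue for wild type, orange for knockout and circle, square and triangle for mouse 1, 2 and 3. *Srxn1*, *Prdx1* and *Txnrd1* are above 0 with OxLDL in all 6 mice, *Sqstm1* is below 0 with AcLDL and *Tkt* is below 0 with either LDL in all 6.

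Other measures moved beside these responses. The summed neutrophil markers were 183 to 329 CPM in wild type cells with OxLDL against 99.9 to 149 CPM in their controls, and 92.4 to 148 CPM against 58.2 to 149 CPM in knockout cells, with *Retnlg* at 0 in all. The summed macrophage markers were 12600 to 14600 CPM in knockout cells with OxLDL against 18000 to 21300 CPM in control, and 21100 to 30200 CPM against 24800 to 35500 CPM in wild type cells. With AcLDL they were 15200 to 17700 CPM in knockout cells, below their controls without overlap, and 25900 to 35900 CPM in wild type cells. Their part in the results for *Prdx1*, *Srxn1*, *Sqstm1* and *Tkt* was not tested.

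OxLDL was also set beside AcLDL, in the same mice but at different doses (100 and 50 μg/mL), so that the kind of LDL and its dose cannot be told apart. By edgeR's quasi-likelihood test 0 of 10 genes passed in either genotype (0.00814% of all genes in wild type and 0.0651% in knockout cells). At an unadjusted p under 0.05, 5.14% and 5.55% of all genes did. Among the 10 genes, *Srxn1*, *Prdx1* and *Txnrd1* were under that limit in both genotypes, and *Sqstm1* and *Tkt* in wild type cells. Of the log2 fold changes, 10 of 10 were above 0 in wild type and 8 of 10 in knockout cells. *Srxn1* was higher with OxLDL in each of the 6 mice, by a log2 fold change of 0.78 (SE 0.15, adjusted p 0.168) in wild type and 0.62 (SE 0.143, adjusted p 0.174) in knockout cells. For *Prdx1* the values were 0.98 (SE 0.241, adjusted p 0.397) and 0.86 (SE 0.241, adjusted p 0.532), also with 6 of 6 mice higher, as were 3.50% of all genes. The 2 media did not overlap for 4 of 10 genes in either genotype (9.20% of all genes in wild type and 13.4% in knockout cells). With the mouse as a block, *Srxn1* passed in both genotypes (adjusted p 3.27e-05 and 0.000223), as did *Prdx1* (3.26e-06 and 1.18e-05), and *Sqstm1* in wild type cells (log2 fold change 0.39, adjusted p 0.0329). DESeq2 called *Srxn1* alone of the 10 in each genotype. The log2 fold change of *Tkt* was 0.29 (95% interval 0.05 to 0.54) in wild type and 0.02 (-0.22 to 0.26) in knockout cells.

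The next question was whether loss of *Slc7a7* altered the 10 genes. In edgeR's quasi-likelihood test 0 of 10 differed between the genotypes in control medium, with AcLDL or with OxLDL, where 0.00814%, 0.0163% and 0.00814% of all genes were called (1, 2 and 1 genes, with 491, 601 and 587 at an unadjusted p under 0.05), and DESeq2 called 0 of the 10 as well. The 1 gene called in control medium was *Gstp1*, described below, so *Slc7a7* itself was not called there although its groups did not overlap. A lack of calls in that medium therefore does not show that a gene was unaltered. Among the 10 genes, *Srxn1* with AcLDL had the smallest unadjusted p. It had 133.2, 148.3 and 127 CPM in knockout and 115.8, 97.5 and 87.7 CPM in wild type cells. These groups did not overlap, and the log2 fold change of 0.45 (SE 0.151) had an unadjusted p of 0.00665 and an adjusted p of 0.990. *Srxn1* was also higher on average in knockout cells in control medium (0.23, 95% interval -0.07 to 0.54) and with OxLDL (0.29, -0.01 to 0.58), with overlapping groups. *Tkt* with AcLDL did not overlap either (log2 fold change 0.17, SE 0.119), which made 2 of 10 genes, against 10.4% of all genes. In control medium and with OxLDL 0 of 10 genes were without overlap (9.28% and 9.30% of all genes). For *Nfe2l2* the 95% intervals of the genotype difference were -0.42 to 0.09, -0.21 to 0.31 and -0.28 to 0.23 in the 3 media, with the farthest bound at -0.42 on the log2 scale. The library names end in running numbers in which all wild type ones come first, and the labels do not say what the numbers stand for. If they follow an order of processing, its effect cannot be told apart from genotype. The summed macrophage markers were lower in knockout cells in each medium without overlap, at 15200 to 17700 against 25900 to 35900 CPM with AcLDL. The largest part of that sum is *Lyz2*, the locus of the Cre, so it does not show whether the other macrophage markers differed. The part of these markers in the values of the 10 genes was not tested.

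**Figure D3:**
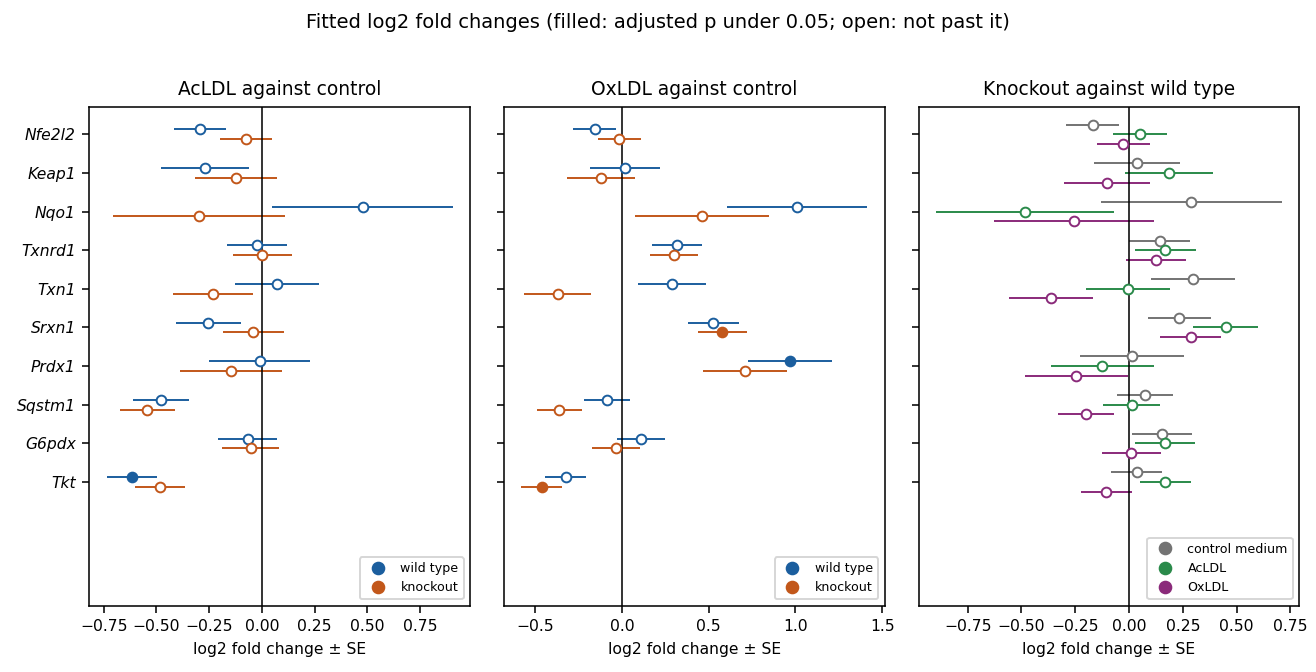
Fitted log2 fold changes with their SE for the 10 genes, for AcLDL and OxLDL against control in each genotype and for knockout against wild type in each medium, with filled points for an adjusted p under 0.05. Of the 70 points 4 are filled: *Tkt* with AcLDL in wild type, *Prdx1* with OxLDL in wild type, and *Srxn1* and *Tkt* with OxLDL in knockout cells.

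The responses of the genotypes were compared directly. In edgeR's quasi-likelihood test the responses to AcLDL or to OxLDL differed by genotype for 0 of 10 genes and for 0% of all genes (327 and 338 genes at an unadjusted p under 0.05). DESeq2 gave 1 and 0 calls over all genes and 0 among the 10. *Txn1* had the largest difference in the response to OxLDL, -0.66 on the log2 scale (knockout minus wild type, SE 0.275), with an unadjusted p of 0.025 and an adjusted p of 1. The difference for *Prdx1* was -0.26 (95% interval -0.96 to 0.44), for *Srxn1* 0.05 (-0.37 to 0.48), for *Nqo1* -0.55 (-1.71 to 0.61) and for *Tkt* -0.14 (-0.48 to 0.20). Calls of *Prdx1* in wild type and of *Srxn1* and *Tkt* in knockout cells are therefore not shown to differ between the genotypes.

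The 10 genes were read beside 6 lists of related genes. Like the 10 genes, the lists were chosen with earlier results of these data known. Their counts and medians are therefore a description and not a test of a list. Of 25 tested genes of a list of 26 other NRF2 targets, 4 were called higher and 0 lower with OxLDL in wild type cells, with 23 of 25 log2 fold changes above 0 and a median of 0.42. Over all genes 0.277% were called higher and the median was 0.01. In knockout cells 3 were called higher (0.659% of all genes), 21 of 25 were above 0 and the median was 0.31, against 0.00 over all genes. The 10 genes themselves had medians of 0.20 in wild type and -0.02 in knockout cells. With AcLDL the list had 0 calls and a median of 0.08 in wild type cells, and 1 call and a median of -0.06 in knockout cells.

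*Gclc*, the catalytic subunit of the rate-limiting enzyme of glutathione synthesis, rose with OxLDL in both genotypes. It had 67.8, 35.6 and 37.9 CPM in wild type control and 90.5, 87.0 and 78.2 CPM with OxLDL (log2 fold change 0.88, SE 0.22, adjusted p 0.0416 in edgeR's quasi-likelihood test), and a log2 fold change of 1.21 (SE 0.221, adjusted p 0.00211) in knockout cells. Its partner subunit *Gclm* rose in knockout cells, from 217.1, 183.2 and 139.9 to 336.8, 417.4 and 326.1 CPM (1.998-fold, SE 0.215 on the log2 scale, adjusted p 0.00935). *Blvrb*, a biliverdin reductase, and *Pir*, which encodes pirin, rose in wild type cells by 0.61 (SE 0.136, adjusted p 0.0179) and 1.46 (SE 0.333, adjusted p 0.0224), the second from 7.43, 4.19 and 9.48 CPM. *Mgst1*, a microsomal glutathione transferase named here after its values were seen, made up the 4 calls in wild type cells (1.01, SE 0.246, adjusted p 0.0379). The 4 wild type calls were all lost without control mouse 2 (adjusted p 0.168 to 0.295), OxLDL mouse 1 (0.0857 to 0.102) or OxLDL mouse 3 (0.0773 to 0.239), or in a fit of the 6 libraries alone (0.190 to 0.333). *Gclc* was lost as well without control mouse 3 (0.227) or OxLDL mouse 2 (0.0989), and *Mgst1* without control mouse 1 (0.105). *Gclm* was lost without control mouse 3 or OxLDL mouse 2 (adjusted p 0.087 and 0.0794).

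*Gstp1*, a glutathione transferase, made up the third call with OxLDL and the call with AcLDL in knockout cells, but its values are uncertain. It had 0 counts in all 3 knockout control libraries and 5.55 to 13.5 CPM in knockout cells with an LDL, at least 4.17-fold higher with AcLDL and at least 5.11-fold higher with OxLDL against the mean worth of 3 counts per library. Its near-identical neighbour *Gstp2* had the reverse pattern, with 10.2, 7.43 and 8.38 CPM in knockout control and 0 in all 9 wild type libraries. Against wild type control (6.499, 11.17 and 8.018 CPM), *Gstp1* was at least 4.59-fold lower in knockout control, which was the single call of any list between the genotypes and was lost without any knockout control library, without wild type control mouse 2 or 3 (adjusted p 0.0554 to 0.175) and in a fit of the 6 libraries alone (0.119). Reads of the 2 copies cannot be told apart with certainty in these counts.

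**Figure D4:**
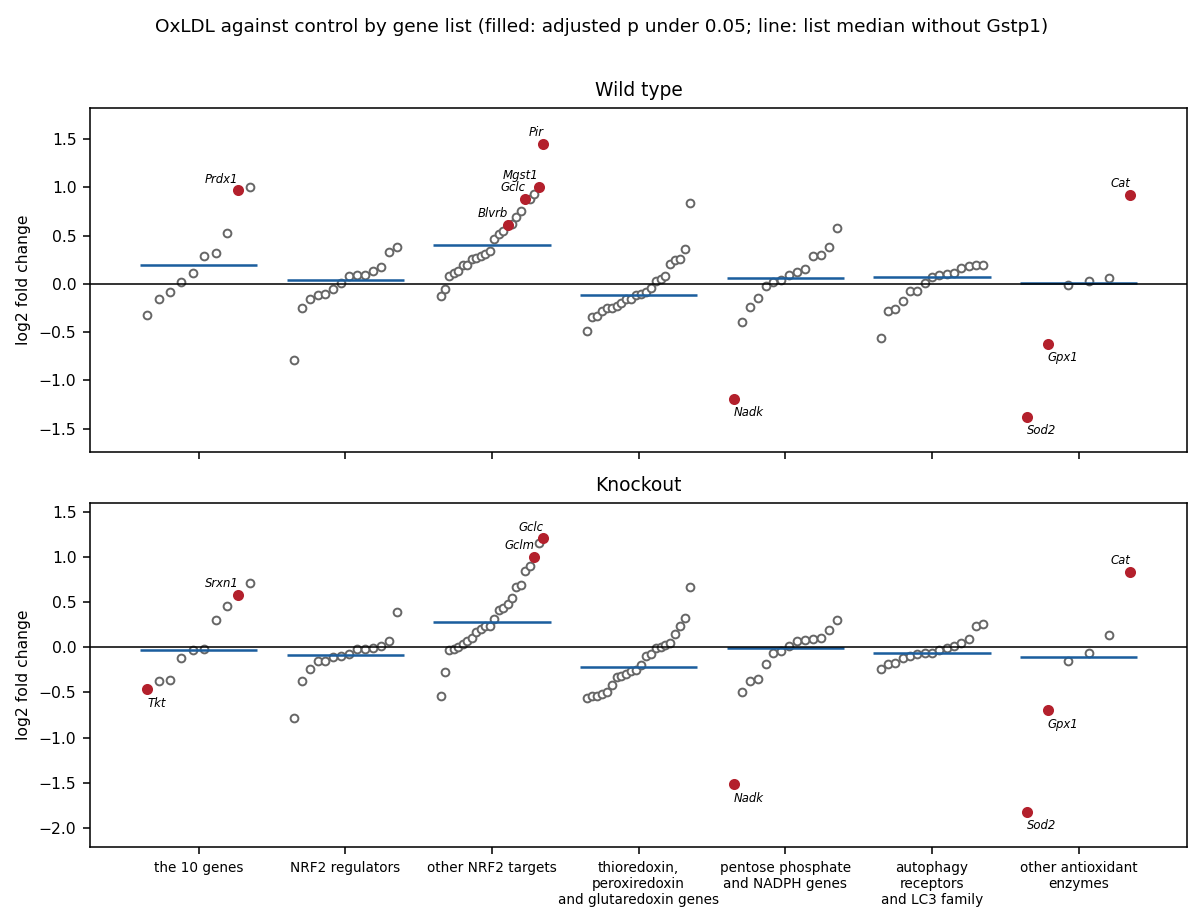
Log2 fold changes of the 10 genes and of each gene of the 6 related lists with OxLDL against control, in wild type (top) and knockout cells (bottom), in order of size within a list, with filled and named points for an adjusted p under 0.05 and a line for the median of a list. *Gstp1* is left out, since it had 0 counts in knockout control libraries. Most other NRF2 targets lie above 0 in both genotypes, while *Nadk*, *Sod2* and *Gpx1* lie below it.

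Of 14 NRF2 regulators and cofactors, 0 were called in any comparison. The smallest p-values among them with OxLDL in knockout cells, neither past the threshold, were those of *Nfe2l1*, an NRF2-related factor (log2 fold change -0.38, SE 0.13, adjusted p 0.159 in edgeR's quasi-likelihood test), and of *Mafg*, a small MAF partner of NRF2 (0.39, SE 0.153, adjusted p 0.253). Of 22 tested genes of 23 other thioredoxin, peroxiredoxin and glutaredoxin genes, 0 were called either. *Prdx2*, a cytosolic peroxiredoxin like *Prdx1*, had 153.1, 148.6 and 173.4 CPM in knockout control and 113.7, 103.3 and 115.6 CPM with OxLDL, in the direction opposite to *Prdx1* (log2 fold change -0.51, SE 0.146, adjusted p 0.0655). *Sesn3*, a sestrin, had a log2 fold change of 0.84 (SE 0.313, adjusted p 0.291) with OxLDL in wild type cells. The medians of this list with OxLDL were -0.11 and -0.22 in wild type and knockout cells, below those of all genes. Of 15 autophagy receptors and LC3-family genes 0 were called, and the smallest unadjusted p were those of *Map1lc3a* (adjusted p 0.934) and *Gabarapl2* (adjusted p 0.965) in OxLDL against AcLDL in wild type cells.

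Among 14 other pentose phosphate and NADPH genes, *Nadk*, the cytosolic NAD kinase that makes NADP, was the only one called, and it fell with either LDL in both genotypes. It had 246, 350.4 and 332.4 CPM in wild type control, 157.5, 205.4 and 188.4 CPM with AcLDL and 157.7, 129.6 and 121.9 CPM with OxLDL. Knockout cells had 303.9, 313.2 and 322.3 CPM, 184.4, 194.9 and 188.5 CPM and 122.1, 104.7 and 102.9 CPM. The groups with an LDL did not overlap their controls. It fell by 0.75 (edgeR's quasi-likelihood test, adjusted p 0.00574) and 1.19 (adjusted p 9.41e-06) on the log2 scale in wild type cells with AcLDL and OxLDL, and by 0.73 (adjusted p 0.00719) and 1.51 (adjusted p 1.73e-07) in knockout cells. It was also lower with OxLDL than with AcLDL in knockout cells (log2 fold change -0.79, adjusted p 0.0267), a call that was lost without any one of the 6 libraries (0.0508 to 0.252). The calls with AcLDL were lost without AcLDL mouse 1 or control mouse 2 in wild type (adjusted p 0.0557 and 0.0679; 0.179 in a fit of the 6 libraries alone) and without AcLDL mouse 2 or 3 in knockout cells (0.0564 and 0.0721).

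Of 6 tested genes of 8 other antioxidant enzymes, 3 were called with OxLDL in each genotype, 1 higher and 2 lower. The shares of all genes called were 1.34% in wild type and 2.32% in knockout cells. *Sod2*, the mitochondrial superoxide dismutase, fell with either LDL in both genotypes, from 130, 130.5 and 157.4 CPM in wild type control to 49.3, 55.6 and 55.4 CPM with OxLDL (log2 fold change -1.38, adjusted p 1.14e-05 in edgeR's quasi-likelihood test) and by 1.82 in knockout cells (adjusted p 1.25e-07). With AcLDL its log2 fold changes were -0.98 (adjusted p 0.00175) and -1.30. *Cat*, the catalase of peroxisomes, rose with OxLDL by 0.92 (SE 0.199, adjusted p 0.0138) in wild type and 0.83 in knockout cells. *Gpx1*, the cytosolic glutathione peroxidase, fell by 0.62 (adjusted p 0.0467) and 0.70 (adjusted p 0.0133). The wild type calls of *Cat* and *Gpx1* were lost in a fit of the 6 libraries alone (adjusted p 0.196 and 0.370). That of *Cat* was lost without control mouse 2 or OxLDL mouse 1 or 3 in wild type cells, and without control or OxLDL mouse 2 or 3 in knockout cells (0.0627 to 0.138). *Gpx1* lost its call without any single library but OxLDL mouse 1 in either genotype (0.0527 to 0.175), and in wild type cells with scaling by library size alone (0.0518).

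The genes whose log2 CPM were most like those of a member over the 18 libraries, among 6753 others with a mean of at least 20 CPM, were found by Pearson's r as a description. The libraries share mice, media and genotype, so no p is given. For *Prdx1* they were *Taldo1* (r 0.949), which encodes transaldolase and stood among the pentose phosphate genes, *Creg1* (0.948) and *Cat* (0.946). *Srxn1* was closest to *Pkm* (0.930), *Nqo1* to *Gsr*, the glutathione reductase (0.876), and *Tkt* to *Aldoc* (0.894). Among the 10 genes, the pair with the highest r was *Sqstm1* and *Tkt* (0.887, and 0.711 for deviations from group means), followed by *Nqo1* and *Prdx1* (0.82 and 0.765) and *Txnrd1* and *Srxn1* (0.806 and 0.455).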

How the data were processed

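RNA-Seq of bone marrow-derived macrophages from 6 mice was analysed (18 libraries, 6 groups of 3). Per the paper's methods, reads were trimmed with Trim Galore, aligned to mm10 with STAR and quantified against Ensembl mouse transcripts in an nf-core workflow. The deposited values are estimated counts of each gene from salmon, without normalization, and all columns belong to these libraries (0 columns of other samples). Tool versions and the strand setting are not given in the sources used here. Doses, times, cell numbers and age are from the paper's methods and groups from the labels.

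Estimated counts were rounded to whole numbers, filtered with filterByExpr (minimum count 2, minimum total count 10; 12290 of 31053 genes) and scaled with TMM. edgeR 4.0.16 (R 4.3.3) fitted the 6 groups with its quasi-likelihood test and no covariate, for 11 comparisons (each LDL against control, OxLDL against AcLDL, knockout against wild type in each medium, and the genotype difference in each response). Adjustment was by Benjamini-Hochberg over the 12290 genes, and calls are adjusted p under 0.05. Log2 CPM have a prior count of 2. The procedure was also run on simulated counts, drawn independently with the same spread in all groups. That run held no effect of mouse and no difference in spread between the genotypes, so it does not cover either. Alternatives were DESeq2 1.42.0, other scalings and filters, a fit limited to the libraries compared, a replicate block and each library left out in turn.

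The labels give the libraries of 1 mouse the same identifier, so media are paired by animal within a genotype. Deviations from group means of same-mouse libraries had correlations of 0.0551 to 0.293 (median 0.158, over 0.1 in 14 of 18 pairs). The chi-square of counts between replicates was 2.96 to 9.34 per degree of freedom in wild type and 1.76 to 3.26 in knockout groups, above counting error. The main fit nevertheless gave all 6 groups 1 shared estimate of the spread, so which genotype holds a call depends in part on that choice. The limit of 3 counts covers counting error only, whereas intervals of fold changes are from the fit and hold the spread between libraries.

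The genes named are the 10 members, *Slc7a7* for its levels, up to 5 called genes of each related list by smallest p (or, with no call, the 2 of smallest p) and the genes most like 4 members. The members and lists were chosen with earlier results of these data known, so no p over a list is given. Coordinates and exon lengths are from GENCODE M21 on GRCm38, a later gene set than the authors', and promoters from RefSeq on GRCm38.p6. Figures were drawn with matplotlib 3.10.9.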

Additional observations from a re-analysis of the deposited data

How the results depend on the processing

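Of 1550 alternative values of the 110 differences given for the 10 genes, 1495 kept their side of the threshold, 22 lost and 33 gained a call. Of all 1550, 103 had the other sign than the main value, 88 of them with 1 library left out, and 0 of these were past the threshold in either fit (size at most 0.23 on the log2 scale, adjusted p at least 0.894). The count of the 10 genes past the threshold was, for AcLDL in wild type cells, 2 with DESeq2, 0 with only the libraries compared and 2 with the replicate block (main value 1). For OxLDL in wild type cells it was 0 with DESeq2, 3 with no filter on low counts, 0 with only the libraries compared and 4 with the replicate block (main value 1). For AcLDL in knockout cells it was 2 with DESeq2, 1 with no filter, 2 with only the libraries compared and 2 with the replicate block (main value 0). For OxLDL in knockout cells it was 1 with library size alone, 4 with only the libraries compared and 4 with the replicate block (main value 2). For OxLDL against AcLDL it was 1 with DESeq2, 2 with no filter and 3 with the replicate block in wild type, and 1, 2 and 2 in knockout cells with 2 for only the libraries compared (main value 0). With 1 library left out, the counts ran from 0 to 1 (AcLDL, wild type), 0 to 2 (OxLDL, wild type), 0 to 0 (AcLDL, knockout) and 0 to 1 (OxLDL, knockout), and were 0 in both comparisons of OxLDL with AcLDL. The genotype comparisons and the genotype differences in response had 0 of the 10 genes in each alternative. The replicate block was the mouse for the responses to LDL and their genotype differences, and the replicate number for the comparisons of genotypes.

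Calls over all genes moved more. In wild type cells they went, for AcLDL, from 58 to 176 with no filter, 32 with only the libraries compared and 265 with the replicate block, and for OxLDL from 165 to 337, 62 and 539. In knockout cells they went from 64 to 188, 198 and 307 (AcLDL) and from 285 to 491, 751 and 882 (OxLDL). For OxLDL against AcLDL they went from 8 to 91, 61 and 169 in knockout cells, with 19 in DESeq2, and from 1 to 73, 1 and 90 in wild type cells, with 11 in DESeq2. Between the genotypes they were at most 45 in any of these. With library size alone, 24.6% of the calls for AcLDL and 39.4% of those for OxLDL in knockout cells were higher, against 14.1% and 28.4% with TMM. The cause of these changes was not tested. At this depth a gene with no count in a library could still have a level of up to 1.67 to 2.85 CPM, the worth of 3 counts.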
